A study of Mus musculus with 9 samples.

Results

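The genes of sterol and fatty acid synthesis were followed across 3 genotypes in microglia, which are brain-resident macrophages. The list held 34 genes, chosen for their place in cholesterol synthesis, in its control by the sterol regulatory element-binding proteins (SREBPs), or in the making and modifying of fatty acids. Of these, 31 had a probe set named for that gene alone, out of 22180 genes measured in this way; where a gene had several such probe sets, the brightest stood for it. The annotation of the arrays gave no such probe set for Acat2, Idi1 or Scd2, and no value is given for them here. The remaining genes were 5 of the early steps from acetyl-CoA to farnesyl diphosphate, 11 from squalene to cholesterol, the sterol carrier gene Stard4, 5 SREBP control genes, 4 genes that make saturated fatty acids and 5 genes that desaturate or elongate them.

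FAD DKO mice carried the transgenes of a familial Alzheimer's disease model (5X FAD), floxed alleles of the histone deacetylase genes Hdac1 and Hdac2, and Cx3cr1CreERT2, a tamoxifen-inducible Cre recombinase placed in the fractalkine receptor gene and active in microglia and other cells that use it. FAD mice carried the same transgenes and floxed alleles (FAD Hdac1/2fl/fl) and no Cre is named for them, and wild type (WT) mice were the third genotype. All were female C57Bl/6 mice aged 24 to 28 weeks, all received 8 mg tamoxifen at 6 weeks of age, and each genotype had 3 arrays. FAD DKO and FAD therefore differ in the Cre allele as well as in the deletion, and the labels do not say whether WT mice carried floxed alleles. The labels do not state whether arrays of a genotype came from separate animals or pools, so p-values measure the spread among these samples, which may be technical.

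Cholesterol is built from acetyl-CoA through mevalonate, farnesyl diphosphate, squalene and lanosterol. The pathway is switched on when SCAP carries an SREBP from the endoplasmic reticulum to the Golgi for cleavage, and INSIG proteins hold SCAP back when sterols are plentiful. SREBP2 acts mainly on sterol genes and SREBP1 mainly on fatty acid genes, and Insig1 is itself a target, which closes a feedback loop. In the brain, microglia that take up myelin or lipoprotein debris receive sterol from outside as well as making it.

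Levels below are log2 signals as deposited, and a difference of 1 is a doubling of signal. As a check of the labels, Hdac1 lay between 7.41 and 7.64 in FAD DKO, between 8.03 and 8.19 in FAD and between 8.07 and 8.65 in WT, and Hdac2 between 7.61 and 7.90 in FAD DKO, between 8.36 and 8.56 in FAD and between 8.22 and 8.39 in WT. Where the probes sit relative to the floxed exons is not known here. The microglia gene P2ry12 lay between 11.90 and 12.16 on the 9 arrays. Of the 31 genes, 7 had a mean below 5.35, the median of all probe sets, where a signal says little about a change (Fdps, Hsd17b7, Stard4, Acss2, Scd1, Elovl6 and Fads2). Another property of the values touches several small spreads: 13 of the 31 genes (41.9%) had exactly the same deposited value on 2 or more arrays, as did 60.1% of all genes. Mvd had 1 identical value on all 3 WT arrays, so its WT SD of 0 is no measure of its spread.

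Promoter letters are shown for Hmgcs1, Msmo1, Sc5d and Insig1, 4 members with an unadjusted p under 0.05 in at least 1 comparison below whose windows hold the motifs searched. They were picked with both the differences and the matches known, so they do not stand for all members. The window of Acaca, the gene with the largest difference below, held none of the motifs and is not printed. They are the 250 bases before the annotated transcript start, 5′ to 3′ along the gene, credited to RefSeq (GRCm38.p6). Capitals mark 4 motifs searched on both strands: TCACNCCAC, a form of the sterol regulatory element; CACGTG, the E-box, which SREBPs can also bind; CCAAT, the NF-Y box; and GGGCGG, the GC box of Sp1. On the opposite strand the last pair read ATTGG and CCGCCC.
Hmgcs1, GRCm38.p6 chr13:119690101-119690350, plus strand: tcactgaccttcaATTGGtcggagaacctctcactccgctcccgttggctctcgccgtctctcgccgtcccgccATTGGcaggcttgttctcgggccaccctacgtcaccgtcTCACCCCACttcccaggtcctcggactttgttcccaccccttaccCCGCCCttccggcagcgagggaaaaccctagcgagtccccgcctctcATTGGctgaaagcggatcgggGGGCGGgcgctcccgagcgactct
Msmo1, GRCm38.p6 chr8:64733579-64733828, minus strand: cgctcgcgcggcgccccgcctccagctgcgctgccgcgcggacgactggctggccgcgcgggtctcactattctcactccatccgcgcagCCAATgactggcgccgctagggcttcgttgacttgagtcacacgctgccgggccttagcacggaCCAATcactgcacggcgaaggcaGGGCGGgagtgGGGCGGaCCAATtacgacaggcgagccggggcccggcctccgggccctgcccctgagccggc
Sc5d, GRCm38.p6 chr9:42264301-42264550, minus strand: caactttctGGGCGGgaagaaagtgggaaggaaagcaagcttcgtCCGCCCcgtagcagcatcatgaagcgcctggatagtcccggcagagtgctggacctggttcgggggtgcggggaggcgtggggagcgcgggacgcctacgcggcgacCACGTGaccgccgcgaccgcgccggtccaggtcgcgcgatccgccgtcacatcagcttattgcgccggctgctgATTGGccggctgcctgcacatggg
Insig1, GRCm38.p6 chr5:28071162-28071411, plus strand: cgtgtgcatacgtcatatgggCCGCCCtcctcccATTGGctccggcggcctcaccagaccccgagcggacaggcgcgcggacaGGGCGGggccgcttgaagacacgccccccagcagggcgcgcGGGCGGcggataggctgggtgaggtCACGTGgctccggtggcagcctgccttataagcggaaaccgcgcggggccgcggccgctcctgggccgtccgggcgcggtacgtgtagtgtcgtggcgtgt
Hmgcs1 held the sterol regulatory element form 137 bases before the start, with CCAAT boxes 237, 176 and 45 bases before it. Msmo1 held 3 CCAAT boxes and 2 GC boxes, and Sc5d and Insig1 each held an E-box (98 and 101 bases before the start) and 1 CCAAT box. Windows were at hand for 27 of the 34 genes (35 windows, since some genes have several starts). The CCAAT box stood in 22 of the 35 (62.9%), against 33.8% of all 32851 windows, and the GC box in 25 (71.4%), against 32.7%. The E-box stood in 6 (17.1%, against 6.02%) and the sterol regulatory element form in 1 (2.86%, against 1.05%). These are matches of letters, given as a description.

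**Figure D1:**
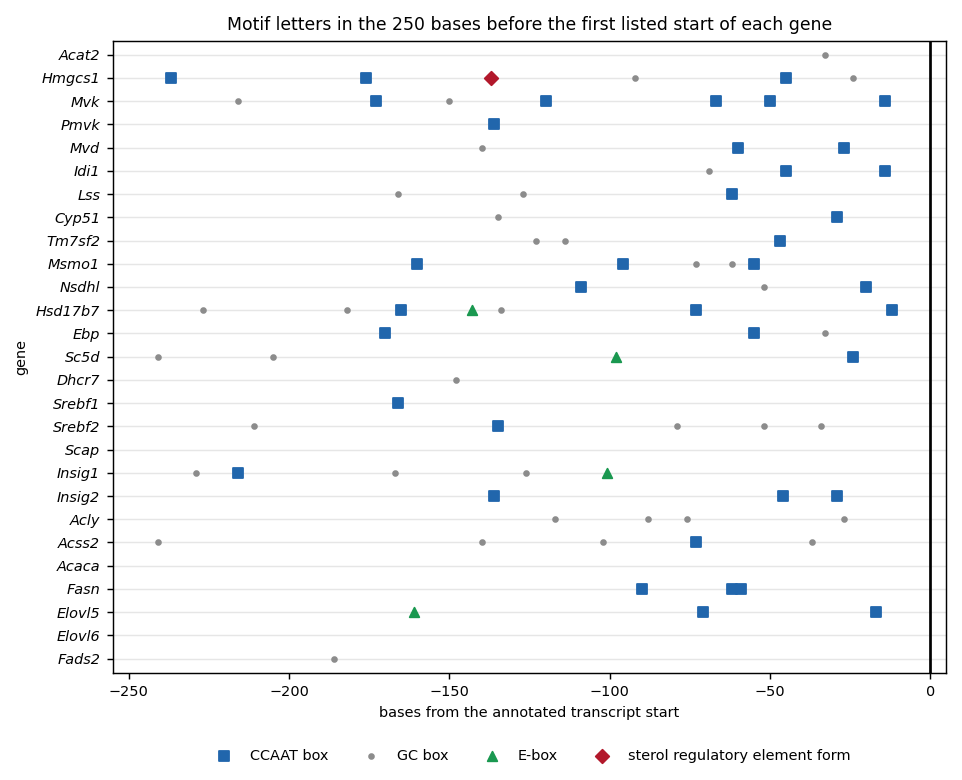
Positions of 4 motifs (symbols) in the 250 bases before the first listed transcript start of 27 genes, with distance from the start in bases on the x axis. CCAAT boxes (squares) are spread over many of the genes, while the sterol regulatory element form (diamond) is in Hmgcs1 alone among these windows.

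FAD set against WT asks how the disease-model genotype stands in these genes. Stard4, Fdps, Acaca, Msmo1 and Sc5d were higher in FAD, by 0.23 to 0.75 on the log2 scale, and their FAD and WT arrays did not overlap. Most other genes of cholesterol synthesis lay slightly above their WT level, while Srebf1 and Fasn stood close to it. In limma with Benjamini-Hochberg adjustment over all genes, 0 of the 31 passed an adjusted p under 0.05, where 9 of 22180 genes did (0.0406%). At an unadjusted p under 0.05, 5 of 31 were higher (16.1%, where 4.41% of all genes were higher) and 0 were lower (4.02% of all genes). Groups did not overlap for 6 genes, all higher in FAD, where 6.37% of all genes were higher and 5.46% lower in this sense.

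Fdps makes farnesyl diphosphate, the branch point between sterols and isoprenoid anchors of proteins. It was at 5.74, 5.32 and 5.54 in FAD, against 4.94, 5.05 and 5.24 in WT. The FAD arrays were all higher, the lowest by a narrow margin. The difference was 0.46 (SE 0.115, 95% interval 0.20 to 0.72, adjusted p = 0.357 in limma), or 1.37-fold, on a dim probe set. Hmgcs1, the synthase that makes HMG-CoA, was at 6.81, 6.68 and 6.93 in FAD, against 6.76, 6.61 and 6.33 in WT. The groups overlapped and the spread lay mostly in WT. Its difference of 0.24 (interval -0.01 to 0.50) was 0.12 without WT replicate 3 and 0.34 without WT replicate 1. The other mevalonate enzymes stood near 0: Mvk, the mevalonate kinase, differed by 0.02 (interval -0.20 to 0.24), Pmvk, the next kinase, by 0.02 (-0.11 to 0.16) and Mvd, the decarboxylase after it, by 0.03 (-0.19 to 0.24).

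Between squalene and cholesterol, Msmo1 and Sc5d stood out. Msmo1, the oxidase that starts removal of the C4 methyl groups, was at 6.28, 6.41 and 6.28 in FAD, against 6.18, 6.05 and 6.05 in WT. All FAD arrays were higher, with a difference of 0.23 (SE 0.0803, adjusted p = 0.513 in limma). Sc5d, the lathosterol desaturase near the end of the pathway, was at 6.95, 7.09 and 6.91 in FAD, against 6.54, 6.88 and 6.39 in WT. Here WT replicate 2 came close to the FAD arrays. The difference was 0.38 (SE 0.144, adjusted p = 0.539 in limma), and 0.52 without WT replicate 2. Cyp51, the lanosterol demethylase, differed by 0.30 (interval -0.03 to 0.62) with overlapping groups. The squalene synthase gene Fdft1 was at 0.15 and the epoxidase gene Sqle, which commits squalene to sterols, at 0.07. Ebp, a sterol isomerase gene, was at 7.02, 7.22 and 7.12 in FAD, against 7.01, 6.99 and 7.04 in WT, a difference of 0.11. Dhcr7, which reduces 7-dehydrocholesterol to cholesterol, was at 0.08 and Nsdhl, which acts after Msmo1, at 0.05. Tm7sf2, a sterol reductase, was at -0.13, the cyclase gene Lss at -0.01 and Hsd17b7, a ketosteroid reductase, at -0.07. Of the 11 genes, 8 lay above 0, with a median of 0.08.

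Stard4 encodes a small carrier that moves sterol between membranes. It was at 4.94, 5.20 and 4.90 in FAD, against 4.42, 4.31 and 4.67 in WT. No array overlapped. The difference of 0.54 (SE 0.12, interval 0.27 to 0.81, adjusted p = 0.269 in limma) is 1.46-fold, on a dim probe set. It lay between 0.45 and 0.64 when each array was left out in turn.

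**Figure D2:**
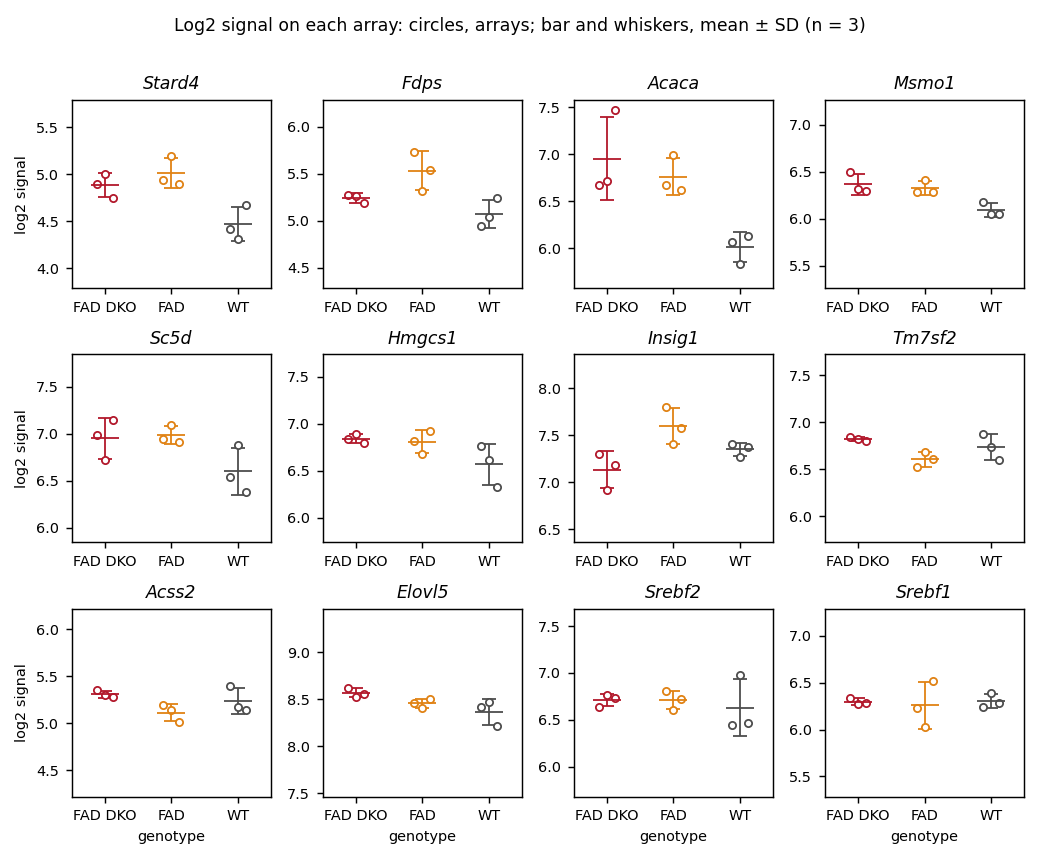
Log2 signal of 12 genes on each array (circles), with mean and SD (bar and whiskers, n = 3) for FAD DKO, FAD and WT from left to right; each panel spans 2 log2 units. Stard4 and Acaca are separated from WT in both FAD genotypes, Insig1 is lowest in FAD DKO and Srebf1 and Srebf2 overlap throughout.

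Fatty acid synthesis was split. Acaca, the acetyl-CoA carboxylase that makes malonyl-CoA and sets the pace of the pathway, was at 6.67, 6.99 and 6.62 in FAD, against 6.06, 5.83 and 6.13 in WT. The groups lay well apart, with a difference of 0.75 (SE 0.205, interval 0.29 to 1.22, adjusted p = 0.411 in limma), or 1.68-fold. It held between 0.64 and 0.82 when each array was left out. Fasn, the synthase that uses malonyl-CoA, was at 6.28, 6.34 and 6.30 in FAD, against 6.20, 6.36 and 6.31 in WT. Its interval of -0.13 to 0.16 leaves out a difference of the size seen for Acaca. Acly, which cleaves citrate to acetyl-CoA, was at 8.06, 8.08 and 7.99 in FAD, against 7.98, 7.96 and 8.00 in WT, a difference of 0.06. Acss2, which makes acetyl-CoA from acetate, was at -0.12 (interval -0.31 to 0.07). Among desaturases and elongases, 0 of 5 had an unadjusted p under 0.05. Fads1, the delta-5 desaturase of polyunsaturated fatty acids, was at 8.52, 8.67 and 8.41 in FAD, against 8.61, 8.54 and 8.64 in WT, a difference of -0.07. Elovl6, an elongase of saturated chains, had a difference of 0.22 that came from WT replicate 1, which stood at 4.12, beside 4.78 and 4.82 on the other WT arrays and 4.79 on each FAD array. Scd1, the stearoyl-CoA desaturase, was at -0.10, Elovl5, an elongase of polyunsaturated chains, at 0.09 and the delta-6 desaturase gene Fads2 at 0.01.

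Among the regulators, Insig1 stood higher without overlap, and the other 4 had overlapping groups. Srebf1 was at 6.23, 6.03 and 6.52 in FAD, against 6.24, 6.39 and 6.28 in WT. Srebf2 was at 6.81, 6.61 and 6.72 in FAD, against 6.45, 6.98 and 6.46 in WT. Both overlapped widely; the differences were -0.05 (interval -0.31 to 0.21) and 0.08 (-0.23 to 0.39), so a shift of the size of Acaca's lies outside both. The Srebf2 value rested on WT replicate 2: without it the difference was 0.25, with an unadjusted p under 0.05, in FAD minus WT and likewise in FAD DKO minus WT. Scap, the escort protein gene, was at 8.04, 7.90 and 7.97 in FAD, against 7.85, 7.90 and 7.83 in WT, with a difference of 0.11. A dimmer Scap probe set gave -0.10. Insig1 was at 7.80, 7.41 and 7.58 in FAD, against 7.41, 7.27 and 7.37 in WT. The lowest FAD array stood above the highest WT array by less than the rounding of these values, and the difference was 0.25 (interval -0.03 to 0.52), or 0.14 without FAD replicate 1. Insig2, the second retention protein gene, was at 6.64, 6.50 and 6.73 in FAD, against 6.78, 6.64 and 6.81 in WT, a difference of -0.12 (interval -0.31 to 0.06).

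By branch, 14 of 17 cholesterol synthesis genes lay above 0 in FAD minus WT (median 0.08), 6 of 9 fatty acid genes (median 0.01) and 3 of 5 control genes (median 0.08), where 47.9% of all genes did and their median was -0.01. Stard4, Fdps and Acaca kept an unadjusted p under 0.05 whichever of the 9 arrays was dropped, and Msmo1 and Sc5d in 6 each. Those 6 include the fits without a FAD DKO array, which leave the difference itself unchanged. Msmo1 lost it without WT replicate 2, WT replicate 3 or FAD replicate 2. Sc5d lost it without WT replicate 1, WT replicate 3 or FAD replicate 2. Without WT replicate 3 the count of higher genes was 3 and that of lower genes 1. Among markers of other cells, those of monocytes and neutrophils ran the same way, with 9 of 9 measured genes above 0 and a median of 0.34 (2 of the 9 were below the median of all probe sets); their summed log2 level was 11.63 to 11.71 in FAD and 10.75 to 11.80 in WT. Of 12 astrocyte genes (9 below that median) 4 were lower at an unadjusted p under 0.05, where 4.02% of all genes were. Their summed level was 9.04 to 9.32 in FAD and 9.12 to 9.14 in WT. Microglia genes themselves lay lower, with 0 of 11 above 0 (median -0.11, 1 at an unadjusted p under 0.05), and their summed levels did not overlap, at 14.54 to 14.56 in FAD and 14.63 to 14.68 in WT. Of 7 lymphocyte genes (6 below that median), 2 were lower at an unadjusted p under 0.05. Perivascular and border macrophage genes had 1 of 6 above 0 (3 below that median). The part of these cells in the result was not tested. Oligodendrocyte genes, of a cell type rich in sterol synthesis, had a summed level of 9.22 to 9.26 in FAD and 9.19 to 9.30 in WT over 16 of 17 genes (10 below the median of all probe sets), with 0 at an unadjusted p under 0.05. In bulk RNA, fewer cells of a type and less RNA per cell cannot be told apart.

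**Figure D3:**
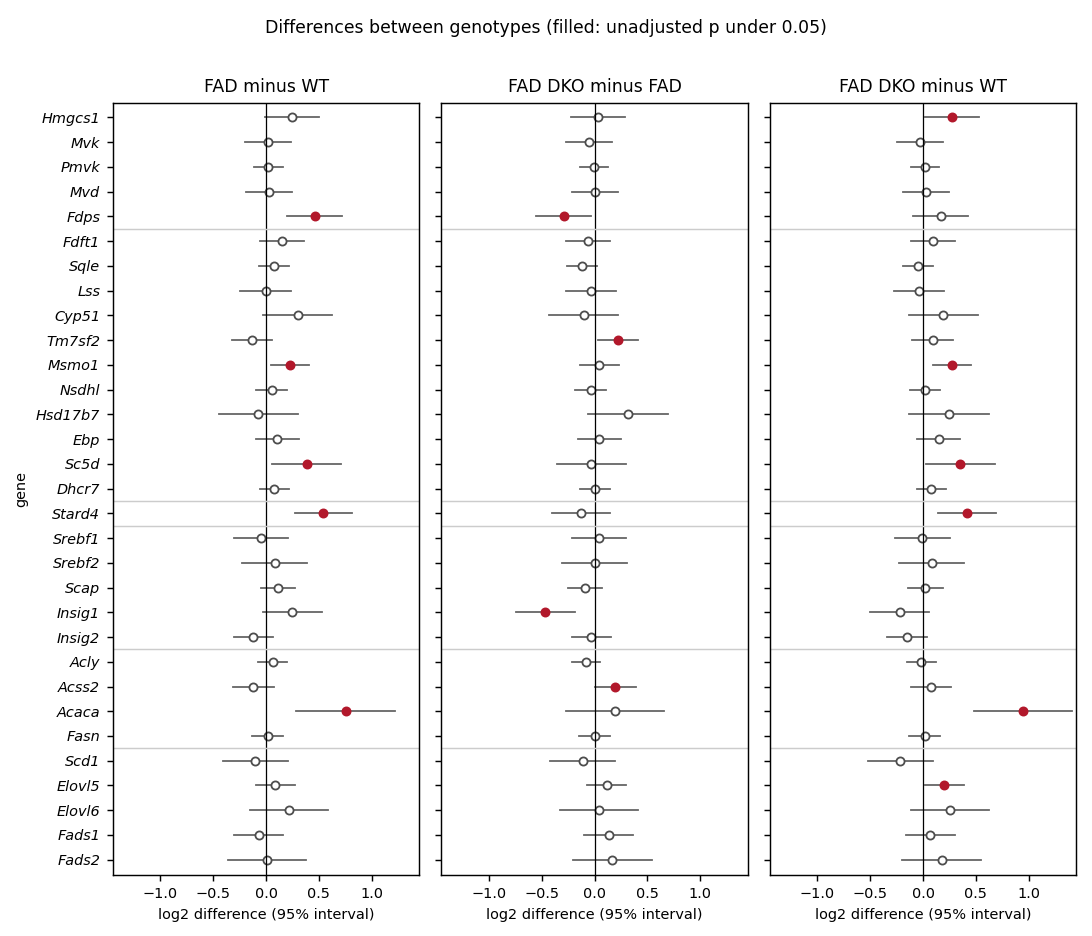
Log2 differences with 95% intervals (limma, 9 arrays) for 31 genes in 3 comparisons; filled points have an unadjusted p under 0.05 and none passed after adjustment over all genes. In FAD minus WT the 5 filled points lie right of 0, in FAD DKO minus FAD 2 lie on each side, and Acaca has the widest interval.

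FAD DKO set against FAD addresses loss of both deacetylases, together with the Cre allele, on the disease-model background. Insig1, the sterol-responsive brake on SREBP transport, and Fdps were lower in FAD DKO, and Tm7sf2 and Acss2 were slightly higher. Fdps and Acss2 were read on dim probe sets, below the median of all probe sets. The SREBP genes and most synthesis enzymes stood near 0. The FAD arrays also serve in the comparison with WT, with the opposite sign, so a gene that happened to be high on them is pushed up there and down here. After adjustment in limma none of the 31 was called, that is 0 at an adjusted p under 0.05 (0.0225% of all genes were). At an unadjusted p under 0.05, 4 stood out (12.9%, where 8.10% of all genes did), of which 2 were higher (6.45%, where 3.69% of all genes were) and 2 lower (6.45%, where 4.41% were). Groups did not overlap for 3 higher and 4 lower genes, where 5.38% and 6.50% of all genes were so. All of these counts are small.

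Insig1 was at 7.30, 6.92 and 7.18 in FAD DKO, against 7.80, 7.41 and 7.58 in FAD. Every FAD DKO array lay below every FAD array. The difference was -0.47 (SE 0.123, interval -0.74 to -0.19, adjusted p = 0.377 in limma), which is 0.724 of the FAD signal, and 1.15% of all genes had a smaller p. It lay between -0.56 and -0.36 when each array was left out, with an unadjusted p under 0.05 in all 9 fits. Insig2, its paralogue, was at 6.64, 6.53 and 6.61 in FAD DKO, against 6.64, 6.50 and 6.73 in FAD, a difference of -0.03 (interval -0.22 to 0.15).

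Fdps was at 5.28, 5.26 and 5.19 in FAD DKO, against 5.74, 5.32 and 5.54 in FAD. The groups did not overlap, though FAD replicate 2 lay close to FAD DKO. The difference was -0.29 (SE 0.115, adjusted p = 0.556 in limma), and -0.19 without FAD replicate 1. It kept an unadjusted p under 0.05 in 4 of the 9 fits without an array. Apart from the fit without FAD replicate 2, these 4 dropped a WT array, which leaves the difference unchanged. That p was lost without FAD replicate 1, FAD replicate 3 or any FAD DKO array. Sqle, the squalene epoxidase gene, was at 5.45, 5.40 and 5.49 in FAD DKO, against 5.61, 5.50 and 5.61 in FAD. Its groups did not overlap either, with a difference of -0.12 (interval -0.26 to 0.02). Tm7sf2, a reductase of the lanosterol branch, was at 6.84, 6.83 and 6.80 in FAD DKO, against 6.52, 6.69 and 6.61 in FAD. All FAD DKO arrays were higher, by 0.22 on average (SE 0.0842, adjusted p = 0.546 in limma), and WT arrays spanned both at 6.88, 6.74 and 6.59. Acss2 was at 5.35, 5.30 and 5.28 in FAD DKO, against 5.20, 5.14 and 5.01 in FAD, a difference of 0.20 (SE 0.0853, adjusted p = 0.614 in limma).

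The remaining genes had small differences or a wide spread. Hsd17b7 was at 5.56, 4.89 and 5.10 in FAD DKO, against 4.86, 4.89 and 4.84 in FAD; its 0.32 (interval -0.06 to 0.70) leaned on FAD DKO replicate 1. Stard4 was at 4.90, 5.01 and 4.75 in FAD DKO, against 4.94, 5.20 and 4.90 in FAD, a difference of -0.13 (interval -0.40 to 0.14) with overlapping groups. Hmgcs1 was at 0.03 (interval -0.22 to 0.29), Msmo1 at 0.04 (-0.14 to 0.23) and Sc5d at -0.03 (-0.36 to 0.29). Acaca was at 6.67, 6.72 and 7.47 in FAD DKO, against 6.67, 6.99 and 6.62 in FAD. FAD DKO replicate 3 stood apart from the rest, and the difference of 0.19 was -0.06 without it.

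The master regulators gave no separation. Srebf1 was at 6.34, 6.27 and 6.28 in FAD DKO, against 6.23, 6.03 and 6.52 in FAD, a difference of 0.04 (interval -0.22 to 0.30). Srebf2 was at 6.64, 6.76 and 6.73 in FAD DKO, against 6.81, 6.61 and 6.72 in FAD, and the interval of its difference ran from -0.31 to 0.31. Scap was at 7.81, 7.84 and 7.99 in FAD DKO, against 8.04, 7.90 and 7.97 in FAD, a difference of -0.09 (interval -0.26 to 0.07). Fasn differed by 0.00 (interval -0.14 to 0.15). Acly was at 7.98, 7.94 and 7.97 in FAD DKO, against 8.06, 8.08 and 7.99 in FAD. The groups did not overlap, and the difference was -0.08.

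By branch, 7 of 17 cholesterol synthesis genes, 1 of 5 control genes and 7 of 9 fatty acid genes lay above 0 in FAD DKO minus FAD (medians -0.03, -0.03 and 0.11), where 53.2% of all genes did and their median was 0.01. The 0.11 of the fatty acid branch was 0.02 without FAD DKO replicate 2. The counts at an unadjusted p under 0.05 shifted when an array was left out. The higher count was 1 without WT replicate 2, FAD replicate 1, FAD replicate 2 or FAD DKO replicate 3, and 0 without FAD replicate 3 or FAD DKO replicate 1. The lower count was 1 without FAD replicate 1, FAD replicate 3 or any 1 of the FAD DKO arrays, and 3 at most. Monocyte and neutrophil markers stood lower, with 0 of 9 above 0 and a median of -0.32. FAD DKO arrays varied widely in them, with summed log2 levels of 10.03 to 12.46 in FAD DKO and 11.63 to 11.71 in FAD. Summed microglia levels did not overlap, at 14.44 to 14.53 in FAD DKO and 14.54 to 14.56 in FAD, though 7 of 11 genes lay above 0. Endothelial and mural genes (5 of 10 below the median of all probe sets) had 8 of 10 above 0. Their summed levels did not overlap either, at 8.94 to 8.98 in FAD DKO and 8.86 to 8.91 in FAD. Oligodendrocyte genes had 7 of 16 above 0. At an unadjusted p under 0.05, 1 of the 16 was higher and 1 lower (3.69% and 4.41% of all genes). Their summed level was 9.19 to 9.37 in FAD DKO and 9.22 to 9.26 in FAD. The part of these cells in the differences was not tested.

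**Figure D4:**
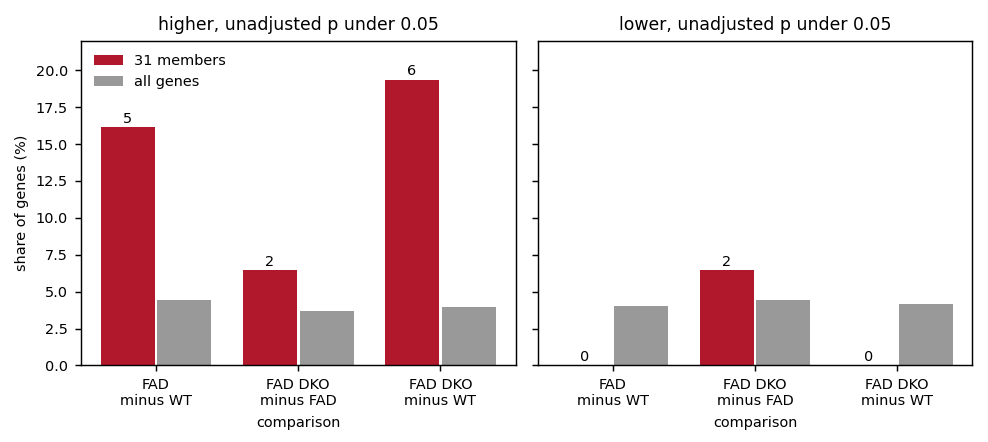
Share of genes (%) higher (left) and lower (right) at an unadjusted p under 0.05 in limma for the 31 genes (red, with their number above) and all 22180 genes (grey), in 3 comparisons. The 5 and 6 higher genes of the comparisons with WT stand above the grey bars, and FAD DKO minus FAD has 2 in each direction.

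FAD DKO set against WT asks for the joint effect of model, deletion and Cre allele, and of the floxed alleles if WT mice lacked them. It shares its WT arrays with the first comparison and its FAD DKO arrays with the second. Acaca had the largest difference of the 31 genes, at 6.67, 6.72 and 7.47 in FAD DKO, against 6.06, 5.83 and 6.13 in WT. No array overlapped, and the difference was 0.95 (SE 0.205, interval 0.48 to 1.41, adjusted p = 0.171 in limma), or 1.93-fold, and 0.69 without FAD DKO replicate 3. Stard4 (0.42) and Msmo1 (0.27) again had groups that did not overlap, and so did Hmgcs1 (0.27) and Elovl5 (0.20). The adjusted p of these 4 in limma lay between 0.358 and 0.571. Hmgcs1 was at 0.15 and Elovl5 at 0.12 without WT replicate 3. Of the 9 fits that each dropped an array, Hmgcs1 kept an unadjusted p under 0.05 in 3, Sc5d in 4 and Elovl5 in 6, while Acaca, Stard4 and Msmo1 kept it in 9. Dropping a FAD array leaves these differences unchanged and touches only the shared spread. Dhcr7 was the sixth gene without overlap, at 0.08 (interval -0.06 to 0.22). The margin was narrow: its FAD DKO arrays were at 6.516, 6.574 and 6.516, and its highest WT array at 6.506. Elovl5, an elongase of polyunsaturated fatty acids, was at 8.63, 8.53 and 8.56 in FAD DKO, against 8.42, 8.48 and 8.21 in WT. Sc5d (0.35) overlapped in FAD DKO replicate 2 and WT replicate 2. Fdps stood at 0.17 (interval -0.09 to 0.43) and Insig1 at -0.22 (interval -0.50 to 0.06), with overlapping groups; Insig1 was at -0.11 without FAD DKO replicate 2.

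In this comparison 0 of 31 passed an adjusted p under 0.05 (0.140% of all genes did), 6 were higher at an unadjusted p under 0.05 (19.4%, where 3.95% of all genes were) and 0 lower (4.19%; 8.14% in both directions). Groups did not overlap for 6 genes, all higher (19.4%, where 5.77% of all genes were higher and 6.15% lower). The higher count was 3 without WT replicate 3, FAD DKO replicate 1 or FAD DKO replicate 3. By branch, 14 of 17 cholesterol synthesis genes, 7 of 9 fatty acid genes and 2 of 5 control genes lay above 0 (medians 0.09, 0.07 and -0.01), where 51.3% of all genes did. Of 11 microglia marker genes, 2 lay above 0 and 4 were lower at an unadjusted p under 0.05, and their summed levels did not overlap, at 14.44 to 14.53 in FAD DKO and 14.63 to 14.68 in WT. Lymphocyte genes had 1 higher and 2 lower of 7 at that threshold, and 1 of 10 endothelial and mural genes passed an adjusted p under 0.05 in limma. Monocyte and neutrophil genes lay on both sides, with 5 of 9 above 0. Astrocyte genes had 1 of 12 above 0 (9 below the median of all probe sets). Perivascular and border macrophage genes had 1 of 6 above 0 (3 below that median). Oligodendrocyte genes had 9 of 16 above 0, with 1 higher and 1 lower at an unadjusted p under 0.05. Their summed level was 9.19 to 9.37 in FAD DKO and 9.19 to 9.30 in WT. The part of these cells in the differences was not tested.

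**Figure D5:**
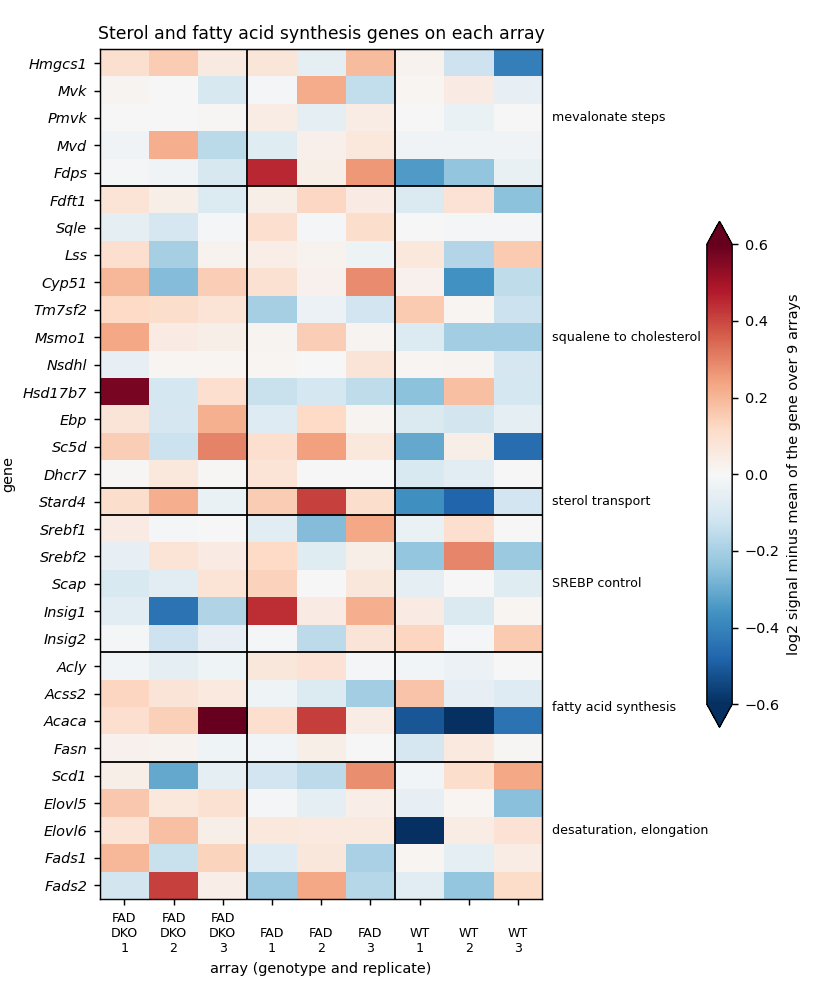
Log2 signal of 31 genes (rows, grouped by step) on 9 arrays (columns, FAD DKO, FAD and WT from left to right), each minus the mean of its gene; colours saturate at 0.6. Acaca and Stard4 are blue across WT, and single dark cells mark Hsd17b7 in FAD DKO replicate 1 and Elovl6 in WT replicate 1.

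Averaged over the 31 genes, after each gene was centred on its mean of 9 arrays, the arrays stood at 0.07, -0.01 and 0.05 in FAD DKO, at 0.04, 0.04 and 0.04 in FAD and at -0.09, -0.07 and -0.08 in WT (log2). The WT arrays were the lowest, and FAD DKO replicate 2 the next. For the 17 cholesterol synthesis genes the values were 0.10, 0.00 and 0.03 in FAD DKO, 0.04, 0.07 and 0.05 in FAD and -0.08, -0.09 and -0.11 in WT. The 5 control genes showed no such order, with -0.03, -0.11 and -0.02 in FAD DKO, 0.13, -0.09 and 0.13 in FAD and -0.03, 0.06 and -0.03 in WT. These means describe the arrays and carry no test. The spread within genotypes was ordinary, with a median SD of 0.118 for the 31 genes and 0.132 for all genes.

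A list of 40 neighbouring genes of lipid metabolism, 32 of them measured, was read beside the 31. In FAD minus WT 3 were higher and 0 lower at an unadjusted p under 0.05 (4.41% and 4.02% of all genes). Ch25h, which makes 25-hydroxycholesterol, an oxysterol that binds INSIG and holds back SREBP cleavage, was at 6.90, 7.56 and 7.04 in FAD, against 6.05, 6.03 and 5.39 in WT. All FAD arrays were higher, by 1.34 on average (SE 0.223, adjusted p = 0.133 in limma). Hacd2, a dehydratase of very long chain elongation, was at 8.43, 8.66 and 8.21 in FAD, against 7.56, 7.79 and 7.90 in WT, a difference of 0.69 (SE 0.136, adjusted p = 0.192 in limma). Tmem97, a sterol-regulated membrane protein gene, differed by 0.21 (adjusted p = 0.573 in limma). Lbr, a sterol reductase that can stand in for Tm7sf2, differed by -0.34 with overlapping groups (adjusted p = 0.637 in limma). Lbr was not among the 3 (unadjusted p = 0.0685 in limma). Its difference lay between -0.54 and -0.19 when each array was left out.

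In FAD DKO minus FAD 0 of the 32 were higher and 2 lower at an unadjusted p under 0.05, where 3.69% of all genes were higher and 4.41% lower, so the count is near the background. The 2 were Nr1h3, the sterol sensor LXR alpha (-0.30), on a dim probe set, and Mbtps2, the protease that makes the last cut in SREBP release (-0.16). In FAD DKO minus WT 4 were higher and 1 lower (3.95% and 4.19% of all genes). In the same comparison, where 0.140% of all genes passed after adjustment, Ch25h rose by 1.72 (SE 0.223, interval 1.22 to 2.23, adjusted p = 0.0319 in limma), the 1 neighbouring gene that passed over all genes. It was at 7.50, 7.34 and 7.79 in FAD DKO, against 6.05, 6.03 and 5.39 in WT. The adjusted p ran from 0.00905 to 0.143 over the alternatives and passed in 6 of 16. It missed without each of the WT arrays (1.84 without replicate 1, 1.83 without replicate 2 and 1.51 without replicate 3), without each of the FAD DKO arrays (1.74, 1.83 and 1.60 in replicate order) and without FAD replicate 3 (1.72). A dimmer Ch25h probe set gave 0.32 for the same comparison and 0.44 for FAD minus WT. Elovl1 (0.22), the cholesterol-binding lysosomal protein gene Npc2 (0.26) and Hacd2 (0.50) were the others on the higher side at an unadjusted p under 0.05, and Lpcat3, an LXR-regulated phospholipid enzyme gene, was on the lower (-0.19). The sterol exporters Abca1 and Abcg1 lay at -0.12 and -0.16 in FAD minus WT, at -0.01 and -0.03 in FAD DKO minus FAD, and at -0.13 and -0.19 in FAD DKO minus WT. All had an unadjusted p above 0.05, and the FAD DKO and WT arrays of Abcg1 did not overlap.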

How the data were processed

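Sorted microglia RNA was amplified, biotin-labelled and measured on 9 one-colour arrays, per the labels' protocols. The authors' deposited table gives each probe set a log2 value from RMA (background correction, quantile normalization, summary over probes), per the submitters' processing notes; the software version is not given in the sources used here. Array medians lay between 5.346 and 5.398. Of 41345 probe sets, 23521 had 1 gene symbol, which gave 22180 genes. Signal over background was not analysed here, and the number of arrays limits the precision.

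Genotypes were compared with limma 3.58.1 in R 4.3.3 (lmFit, eBayes without trend) in 1 fit of all 9 arrays, two-sided, with p-values adjusted by Benjamini-Hochberg over all genes and called under 0.05. The fit was tested on simulated data. The differences added there were larger than that of any member here, so detection of smaller ones was not tested. Figures used Python 3.11.15 and matplotlib 3.10.9. The members, gene lists and comparisons were chosen with earlier results of these data known. Single values are given for members with an unadjusted p under 0.05 in a comparison, the 5 SREBP control genes and the brightest member of each step; of the neighbouring genes, those with the smallest p per comparison; the other genes with single values (such as Fasn, Sqle, Hsd17b7 and Elovl6) and the exporters and Lpcat3 were added after their values were seen. The alternatives were a low-signal filter, quantile normalization, a trended and robust variance, the 2 groups alone, weighted arrays, averaging all probe sets of a gene, a replicate block, and omission of single arrays.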

Additional observations from a re-analysis of the deposited data

How the results depend on the processing

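The count of members passing an adjusted p under 0.05 was 0 in all 3 comparisons under each of the alternatives run (lowest adjusted p of a member 0.0715, Acaca in FAD DKO minus WT with the low-signal filter). At an unadjusted p under 0.05, the low-signal filter, which dropped 7 members, left 3 higher in FAD minus WT, and 1 higher and 1 lower in FAD DKO minus FAD. Quantile normalization and the trended and robust variance each left 1 higher in FAD DKO minus FAD, and the 2 groups alone left 3 higher in FAD DKO minus WT (the cause was not tested). With array weights the median of the control genes in FAD minus WT was -0.029 and that of the fatty acid genes in FAD DKO minus WT 0.13. With the replicate block, 3 were higher and 1 lower in FAD DKO minus WT, and 7 were higher in FAD minus WT. The numbers are not shown to pair the samples: same-numbered arrays of different genotypes had correlated deviations between -0.11 and 0.12. Leaving out each array gave, in FAD minus WT, 3 to 7 higher, 0 to 1 lower, and medians of -0.0093 to 0.13 for control and -0.0058 to 0.064 for fatty acid genes. It gave 0 to 2 higher and 1 to 3 lower in FAD DKO minus FAD, with a fatty acid median of 0.020 to 0.11, and 3 to 8 higher and 0 to 1 lower in FAD DKO minus WT. In FAD minus WT Ch25h passed with the low-signal filter (adjusted p = 0.0482) and with the trended and robust variance (0.0457). In FAD DKO minus WT it missed in 10 of 16 alternatives, among them the replicate block (0.101), the 2 groups alone (0.0795) and the mean of its probe sets (1.02, 0.124).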
